A study of Mus musculus with 3 samples.

Results

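The genes described here encode 10 membrane transporters that carry amino acids or small peptides: the light chains Slc7a5, Slc7a6, Slc7a7, Slc7a8 and Slc7a11, their shared heavy chain Slc3a2, the glutamine and neutral amino acid carriers Slc1a5, Slc38a1 and Slc38a2, and the peptide and histidine transporter Slc15a3. They were chosen by name, as all array probes whose accession maps to these symbols, and not by any measured value. The arrays held 14 probes for them, and all 10 genes were among the 13187 genes measured, of 20660 with a symbol on the array. Expression was compared between wild-type mouse (C57BL/6J) bone marrow-derived macrophages given adiponectin, a hormone made by fat tissue, at 12 µg/ml for 18 h and the same kind of cells left untreated. Both groups were grown from bone marrow with medium conditioned by L929 cells as the source of the growth factor CSF-1 and were moved to low serum before treatment. The dose is given in µg/ml in the treatment text, but in mg/ml where RNA extraction is described. No source for the adiponectin is named in the texts used here.

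Agilent 2-colour arrays, which compare both RNA samples of a pair on one glass surface, were used for 6 RNA samples in all. Each of the 3 arrays carried 1 treated and 1 untreated sample, and they are labelled as biological replicates 1, 2 and 3. The labels do not say whether the 3 pairs came from separate mice, so the p-values below rest on the spread between these arrays, which may in part be technical. The test also draws each gene's spread towards a value shared by all genes, which weighs more here than the gene's own 3 arrays. For genes that vary much between arrays, the p-values are therefore smaller than their own spread would give. The dye Cy3 marked treated RNA on replicates 1 and 3, and the dyes were swapped on replicate 2. The arrays were on 1 slide and were read in 1 scan. Between 43.9% and 47.5% of probes were well above background in treated channels, against 53.4% to 54.4% in untreated ones.

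The light chains described here work in pairs with a heavy chain, unlike the cationic transporters of the same SLC7 family. The heavy chain, encoded by Slc3a2 and also known as CD98 or 4F2hc, carries a light chain to the cell surface, and the light chain sets which amino acids are exchanged. The SLC1 and SLC38 carriers instead work without this heavy chain and use the sodium gradient, and glutamine is among their main cargoes. In macrophages, import of cystine feeds the synthesis of glutathione, import of arginine feeds nitric oxide and polyamine synthesis, and glutamine is a major fuel. Several of these genes are textbook targets of the amino acid response, in which the transcription factor ATF4 and its partners bind composite elements near the promoter when amino acids run short.

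Promoter sequence was held for 6 of the 10 genes, in 11 windows of the RefSeq table (build GRCm38.p6), each with 250 bases before and 50 bases after a start site. Motifs of 2 kinds were met in these windows on either strand: TGATGNAA, the core of the composite element bound by ATF4 with a C/EBP partner, and TGACNNNGC, the core of the antioxidant response element bound by NRF2. Neither the E-box CACGTG nor the AP-1 letters TGANTCA occurred in any of the 11 windows. TGATGNAA occurred in 3.97% of the 32851 windows in the table and TGACNNNGC in 12.4%, while CACGTG occurred in 7.15% and TGANTCA in 7.81%. Slc7a11 (chr3:50443614-50443863, minus strand) held TGATGNAA at positions -66 to -59 and, on the other strand, at -47 to -40. The first Slc7a7 window (chr14:54417945-54418194, minus strand) held it at -141 to -134 and again across the start site, at -1 to 7. The second copy is also found at -243 to -236 of another window of that gene. In all, 23 of the 32851 windows held the letters at least 2 times. Slc38a2 (chr15:96699729-96699978, minus strand) held TGACNNNGC at -27 to -19, and overlapping windows of Slc7a6 shared 1 match, at -68 to -60 of one and -1 to 8 of the other. The windows of Slc3a2 and Slc7a8 held none of the 4 motifs. The 250 bases before the start are shown for the cystine transporter gene Slc7a11, which rose, for the first window of the light chain gene Slc7a7, which fell, and for the glutamine carrier gene Slc38a2, which fell most. Capitals mark the matches to TGATGNAA or TGACNNNGC that lie wholly before the start site.
Slc7a11: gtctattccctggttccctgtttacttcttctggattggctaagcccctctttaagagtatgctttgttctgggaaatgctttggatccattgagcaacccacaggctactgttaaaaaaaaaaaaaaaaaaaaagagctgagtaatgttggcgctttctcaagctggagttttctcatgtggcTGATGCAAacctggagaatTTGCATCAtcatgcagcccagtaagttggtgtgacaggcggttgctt
Slc7a7: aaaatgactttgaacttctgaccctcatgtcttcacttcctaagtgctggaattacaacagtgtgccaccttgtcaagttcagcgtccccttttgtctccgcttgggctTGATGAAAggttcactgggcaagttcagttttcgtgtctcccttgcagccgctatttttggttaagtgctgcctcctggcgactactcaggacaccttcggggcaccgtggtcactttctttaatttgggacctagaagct
Slc38a2: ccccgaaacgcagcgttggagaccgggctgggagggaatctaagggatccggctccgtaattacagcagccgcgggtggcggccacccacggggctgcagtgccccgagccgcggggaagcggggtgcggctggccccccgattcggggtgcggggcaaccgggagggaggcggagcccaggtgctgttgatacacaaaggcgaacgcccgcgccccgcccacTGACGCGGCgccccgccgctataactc
A match of letters is a description of the sequence and not evidence that a factor was bound in these cells. The genes with 2 matches to TGATGNAA in a window, Slc7a11 and Slc7a7, moved in opposite directions.

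The comparison asked how transcripts of these transporters differ after adiponectin. Slc7a11, Slc15a3 and Slc3a2 were at least 2-fold higher in treated macrophages, Slc7a8 was higher by a smaller amount, and Slc38a2, Slc1a5 and Slc7a7 were lower. Slc38a1 was higher with its brightest probe, which stands for the gene in the counts, but lower with another (-0.61), and the mean over its probes was -0.01. Slc7a5 and Slc7a6 did not pass the test. A gene was called when the 3 log2 ratios of treated over untreated differed from 0 in limma at a Benjamini-Hochberg adjusted p under 0.05 over all genes measured. By this rule 5 of the 10 genes (50%) were called higher and 3 (30%) lower, where 24.5% of all 13187 genes were called higher and 46.1% lower. The median log2 ratio of the 10 genes was 0.14, and that of all genes was -0.17. The lowest and highest of the 10 were -1.02 and 1.29. The list as a whole was not tested. In RNA from a whole culture, fewer cells of a type and less RNA per cell cannot be told apart.

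**Figure D1:**
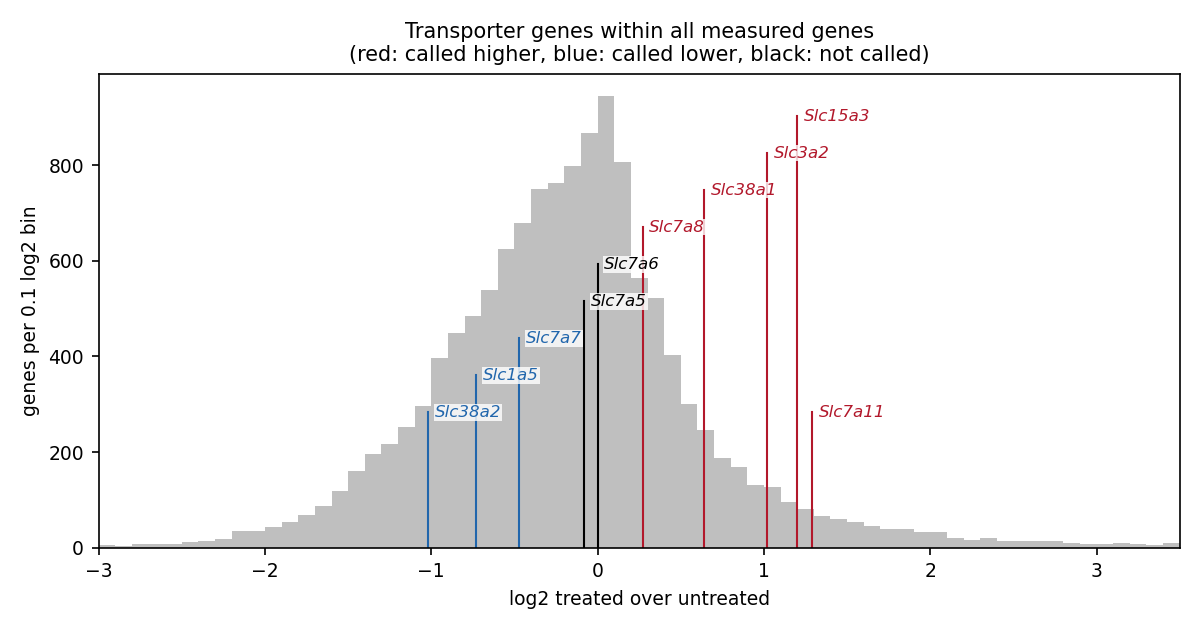
Histogram of the log2 ratio of treated over untreated for all measured genes (grey, genes per bin of 0.1 log2 units), with a vertical line at the ratio of each of the 10 transporter genes. Line height has no meaning. Slc7a11, Slc15a3 and Slc3a2 lie above 1.00, and Slc38a2 lies at -1.02.

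The heavy chain gene Slc3a2 was higher in treated cells on every array. Its log2 intensity was 14.56, 14.65 and 14.57 in the untreated samples of replicates 1, 2 and 3 and 15.65, 15.34 and 15.84 in the treated ones. The untreated samples were close together, and every treated sample lay above them. The log2 ratio was 1.02 ± 0.12 (limma's moderated standard error, SE, n = 3 arrays), or 2.02-fold, with an adjusted p of 7.3e-05 in limma. The dye-swapped replicate 2 had the smallest ratio, 0.69, against 1.10 and 1.27. With a dye term in the fit, the ratio was 0.94 and the dye coefficient -0.25 (limma adjusted p = 0.295).

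The 5 light chain genes did not follow the heavy chain as a group. Slc7a11, the light chain of the cystine and glutamate exchanger known as xCT, rose. Its log2 intensity was 7.06, 7.14 and 7.06 in untreated cells and 8.84, 8.62 and 7.69 in treated cells of replicates 1, 2 and 3. The untreated values were close together, while the treated sample of replicate 3 was about 1 log2 unit below the other treated samples and still above every untreated sample. This came to a log2 ratio of 1.29 ± 0.19, or 2.45-fold (limma adjusted p = 0.000314), from ratios of 1.78, 1.48 and 0.63. The SD of these ratios was 0.60, which is more than the moderated SE implies. This probe is dim, and the offset of 50 added to every signal draws ratios of dim probes towards 0. With no offset the ratio was 1.86. The scanner software's own log ratio gave 2.00, from 2.59, 2.20 and 1.20 on the 3 arrays. With the offset of 50 and without replicate 3, the ratio was 1.63.

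Slc7a8, the light chain of the neutral amino acid exchanger LAT2, was slightly higher in treated cells. Untreated log2 intensities of 11.23, 11.30 and 11.26 stood against treated ones of 11.45, 11.50 and 11.66, so that the groups did not overlap. The mean difference was 0.27 ± 0.085 log2 units, or 1.21-fold (limma adjusted p = 0.0186). Leaving out replicate 1 (adjusted p = 0.0641) or replicate 3 (adjusted p = 0.126) ended the call, and the ratio was 0.45 when each array was centred on the median of the genes measured.

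Slc7a7 encodes y+LAT1, which releases cationic amino acids in exchange for neutral ones and whose human counterpart is mutated in lysinuric protein intolerance, a disease that affects macrophages. It fell from log2 intensities of 11.23, 11.12 and 11.16 in untreated cells to 10.66, 10.70 and 10.75 in treated cells. Both groups were tight and lay apart from each other. Its log2 ratio of -0.47 ± 0.083 (limma adjusted p = 0.00101) is 1.38-fold lower, and the ratio was -0.30 with each array centred on the median of the genes measured.

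Slc7a6, which encodes the related exchanger y+LAT2, was a dim gene. Treated log2 intensities were 6.37, 6.41 and 6.22 and untreated ones 6.29, 6.29 and 6.42, and the groups overlapped. The treated channel was well above background on 2 of the 3 arrays. Its mean log2 ratio was 0.00 ± 0.093 (limma adjusted p = 0.982), with a 95% interval from -0.21 to 0.22. The SE was 0.21 with no offset and 0.31 in the scanner software's ratio, so the width of this interval depends on the background handling. The scanner software's ratios of 0.53, 0.40 and -0.91 also differed in sign between arrays.

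Slc7a5, the light chain of LAT1, through which leucine and other large neutral amino acids enter many cells, had probes that differed. The brighter one read 7.11, 7.20 and 7.17 in untreated and 6.97, 7.10 and 7.18 in treated cells, with overlapping groups. Its log2 ratio was -0.08 ± 0.082 (limma adjusted p = 0.433), with a 95% interval from -0.26 to 0.11. The dimmer probe gave ratios of 0.31, 0.30 and 0.23. In a limma fit on all 28968 probes measured, it was called higher at 0.28 (adjusted p = 0.0125), where 25.8% of all probes were called higher and 35.9% lower. Within an array the brighter probe was lower than the dimmer one by 0.45, 0.40 and 0.22 log2 units. An exact sign-flip test on 3 differences cannot give a two-sided p below 0.25. Both probes carry the same RefSeq accession.

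The ratio of Slc3a2 was above that of Slc7a5, Slc7a6, Slc7a7 and Slc7a8 on 3 of 3 arrays and above that of Slc7a11 on 1 of 3. Among these 6 heavy and light chain genes, the heavy chain and the cystine exchanger light chain were called higher at 2-fold or more, while LAT2 was called higher by less, y+LAT1 was called lower, and LAT1 and y+LAT2 were not called with their brightest probe.

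**Figure D2:**
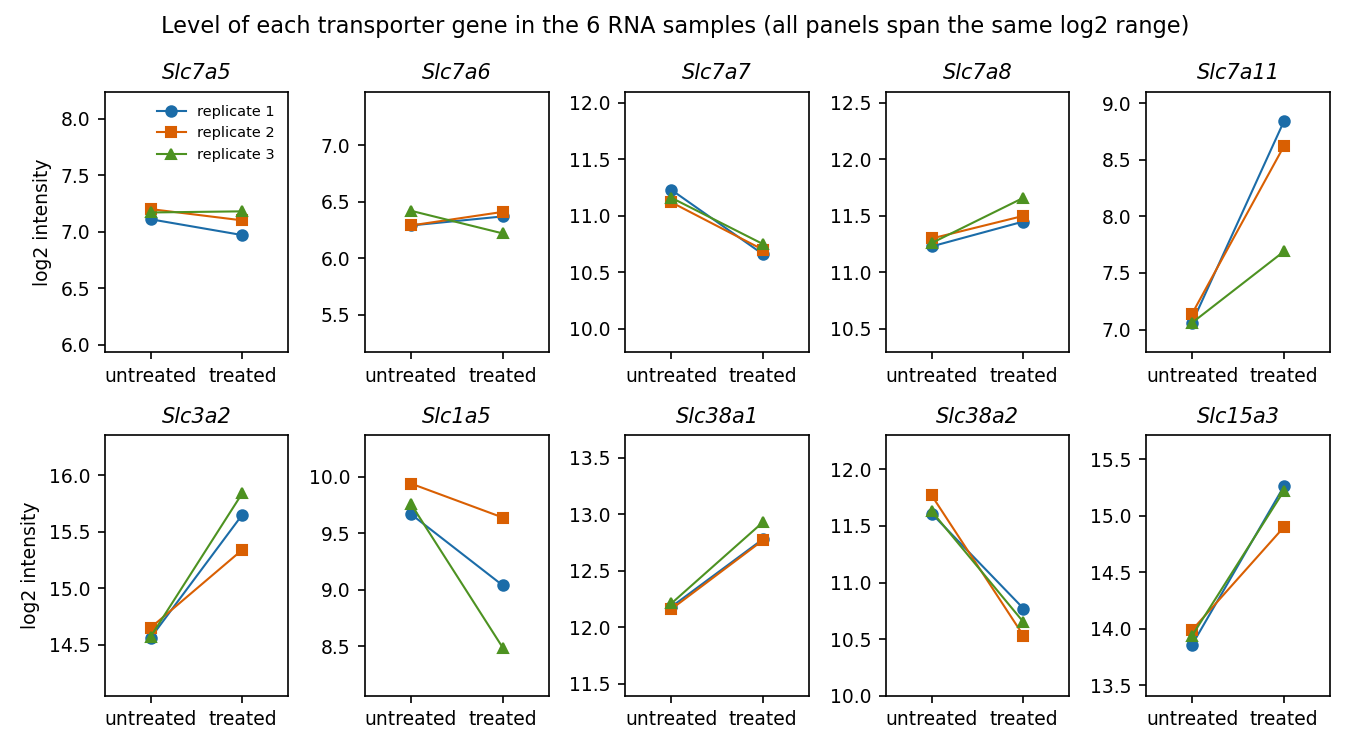
Normalized log2 intensity of each of the 10 transporter genes in untreated and treated cells. Each line joins the 2 RNA samples of 1 array, and every panel spans the same range. The 3 lines run the same way in all panels but those of Slc7a5 and Slc7a6, and how many of all genes would show this was not counted. In the Slc7a11 panel the treated sample of replicate 3, at 7.69, lies below the other treated samples, and in the Slc7a5 and Slc7a6 panels the groups overlap.

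The sodium-coupled glutamine carriers moved in both directions. Slc38a2, which encodes SNAT2, a carrier of glutamine and alanine that many cells induce when amino acids are scarce, fell most among the 10. Its log2 intensity was 11.61, 11.77 and 11.63 in untreated cells and 10.77, 10.53 and 10.65 in treated cells. Every treated sample lay below every untreated one. The log2 ratio was -1.02 ± 0.098, or 2.03-fold lower (limma adjusted p = 2.56e-05), and ratios on the 3 arrays were -0.84, -1.24 and -0.98.

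Slc1a5 encodes ASCT2, which exchanges glutamine for other neutral amino acids. Its brighter probe read 9.67, 9.94 and 9.76 in untreated and 9.04, 9.64 and 8.49 in treated cells. The groups did not overlap, but the treated samples were spread over more than 1 log2 unit. Averaged over arrays, the log2 ratio was -0.73 ± 0.16, or 1.66-fold lower (limma adjusted p = 0.00352), from ratios of -0.63, -0.30 and -1.27. Their SD of 0.49 is again more than the moderated SE implies. The mean ratio was -0.46 without replicate 3 (adjusted p = 0.0125). With a dye term in the fit it was -0.62, and the dye coefficient was 0.33 (limma adjusted p = 0.358), the largest in size among the 10 genes. The dimmer probe gave -0.40, -0.77 and -0.70 and was also called lower, at -0.62 (adjusted p = 0.000616 over all probes). The probes thus had the same sign on all arrays but did not order the arrays alike.

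Slc38a1 encodes SNAT1, a close relative of SNAT2, and its 3 probes did not give one answer. The brightest read 12.18, 12.16 and 12.21 in untreated and 12.78, 12.77 and 12.93 in treated cells. With groups this tight and separate, its log2 ratio of 0.64 ± 0.081, or 1.56-fold, was called higher (limma adjusted p = 0.000134). The next probe read 8.58, 8.85 and 8.86 in untreated and 8.14, 8.09 and 8.22 in treated cells. It gave a ratio of -0.61 and was called lower (adjusted p = 0.00045 over all probes). The dimmest gave ratios of -0.09, 0.10 and -0.18 and was not called (adjusted p = 0.6 over all probes). The difference between the brightest and the next probe was 1.04, 1.37 and 1.36 within the 3 arrays, or 1.26 ± 0.19 (SD, n = 3), which is larger than the spread between arrays. The mean over the 3 probes was -0.01. All 3 carry the same RefSeq accession, and the direction of Slc38a1 therefore depends on which probe stands for the gene.

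**Figure D3:**
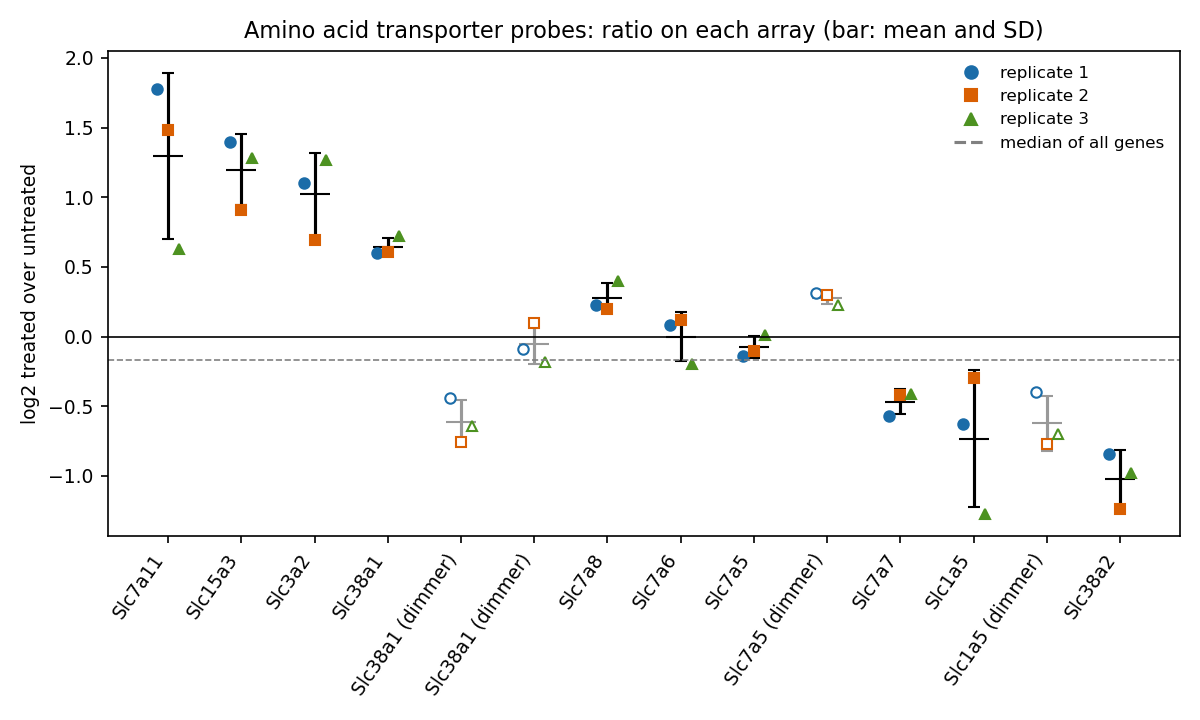
Log2 ratio of treated over untreated on each array for the 14 probes of the 10 transporter genes. Filled symbols are the brightest probe of a gene and open symbols its dimmer probes, the bars give the mean and SD over the 3 arrays, and the dashed line is the median of all genes, -0.17. The brightest Slc38a1 probe lies near 0.64 and its next brightest near -0.61, while both Slc1a5 probes lie below 0.

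Slc15a3 encodes PHT2, a proton-coupled transporter that moves histidine and small peptides out of endosomes and lysosomes, compartments in which some Toll-like receptors meet their ligands. It rose from log2 intensities of 13.86, 13.99 and 13.94 in untreated cells to 15.26, 14.90 and 15.22 in treated cells. Every treated sample lay well above every untreated one. The rise was 1.20 ± 0.11 on the log2 scale, or 2.30-fold (limma adjusted p = 1.8e-05). Replicate 2 had the smallest ratio, 0.91 against 1.40 and 1.28, as for Slc3a2, and the dye coefficient was -0.22 (adjusted p = 0.333). The paralogue Slc15a4, also of endolysosomes, was lower instead, at -0.82 ± 0.092 (limma adjusted p = 6.59e-05).

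Other amino acid transporters were set beside these 10 from a list of 53 genes, of which 29 were measured. Of the 29, 11 (37.9%) were called higher and 10 (34.5%) lower, against 24.5% and 46.1% of all genes, with a median log2 ratio of 0.09 against -0.17 over all genes. The cationic amino acid transporter gene Slc7a2 had untreated signals not well above background on 3 of 3 arrays, and the treated signal exceeded them at least 9.70-fold. It thus counted as measured through its treated signals alone. Slc7a3 (-0.26) and Slc36a2 (-0.61), both called lower, counted as measured through untreated signals alone. Slc7a1, the cationic transporter made by most cells, was at 0.05 ± 0.097 and did not pass. The glycine transporter gene Slc6a9 rose by 2.22 ± 0.25, with ratios of 2.53, 2.83 and 1.28. Slc32a1, known as a vesicular GABA and glycine carrier of neurons, was called higher at 2.23 ± 0.088, but its other probe gave 0.08. The taurine transporter gene Slc6a6 had a log2 ratio of -1.25 ± 0.090. Slc38a9, the lysosomal carrier that reports arginine to the growth kinase complex mTORC1, had one of -1.24 ± 0.11, and its 3 probes ranged from -1.24 to -0.70.

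Genes of the amino acid response did not move as a block. Of 26 measured genes of a list of 29, 9 (34.6%) were called higher and 9 (34.6%) lower, against 24.5% and 46.1% of all genes, with a median of -0.02. Vldlr (-0.27), among those called lower, was well above background in untreated channels alone. The 3 largest rises were Ddit4, an inhibitor of mTORC1 (3.80 ± 0.10), the transcription factor gene Cebpb (2.64 ± 0.091) and Nupr1, a stress-induced chromatin protein (2.27 ± 0.10), and each of them is known to respond to other stimuli as well. Asns, the asparagine synthetase gene and a standard ATF4 target, was at -0.37 ± 0.13 (limma adjusted p = 0.0302), with ratios of -0.04, -0.32 and -0.74. It was not called with replicate 2 left out (-0.39, adjusted p = 0.0539) or with replicate 3 left out (-0.18, adjusted p = 0.223). Nor was it called with no offset (-0.31), in the scanner software's ratio (-0.36), with arrays centred on the genes measured (-0.20) or with median centring (-1.50). The ATF4 target Trib3 fell by 0.76 ± 0.10 on the log2 scale, and Ddit3, which encodes the stress factor CHOP, was at 0.01 ± 0.080 and did not pass. Atf4 itself was at 0.31 ± 0.12 (adjusted p = 0.0445), a call that was lost under several settings. Leaving out replicate 2 gave 0.13 (adjusted p = 0.216) and leaving out replicate 3 gave 0.37 (adjusted p = 0.0637), and 7 further settings also did not call it, with the sign turned to -0.70 by median centring. Its other probe gave 0.67. Among the largest falls were the tRNA exporter gene Xpot (-1.47 ± 0.088, though -0.17 with its dimmer probe), Atf5 (-1.11 ± 0.11) and the alanine aminotransferase gene Gpt2 (-1.09 ± 0.094).

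The aminoacyl-tRNA synthetases, which load amino acids onto tRNA for translation, were lower or did not pass. Of 20 genes, all measured, 14 (70%) were called lower and 0 higher in limma, against 46.1% and 24.5% of all genes, and at an unadjusted p under 0.05 the counts were 14 and 0. The median was -0.49. Lars (-1.47 ± 0.092), Iars (-1.34 ± 0.14) and Nars (-1.27 ± 0.086), for leucine, isoleucine and asparagine, fell most. With each array centred on the median of the genes measured, 1 was called higher, and in the scanner software's ratio 9 were called lower.

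Among 31 measured enzymes that use amino acids, of a list of 35, 12 (38.7%) were called higher and 17 (54.8%) lower, against 24.5% and 46.1% of all genes, with a median of -0.37. The 3 largest rises were in Nos2, Il4i1 and Arg2, and the next was Bckdhb, of branched-chain amino acid breakdown (2.14 ± 0.082). Enzymes of arginine and aromatic amino acid breakdown did not all rise alike. Arg1 was at 0.25 ± 0.096, and Kmo, of tryptophan breakdown, was called lower at -1.01 ± 0.083. The nitric oxide synthase gene Nos2 rose by 3.61 ± 0.10, Il4i1, a secreted phenylalanine oxidase, by 3.61 ± 0.091 and Arg2, mitochondrial arginase, by 2.73 ± 0.087. Gclm and Gclc, the subunits of the enzyme that joins cysteine to glutamate in glutathione synthesis, rose by 1.61 ± 0.12 and 0.78 ± 0.090. Ratios on replicates 1, 2 and 3 were 1.88, 1.67 and 1.30 for Gclm and 0.87, 0.85 and 0.60 for Gclc. The glutamine synthetase gene Glul (-1.76 ± 0.082), the glutamate dehydrogenase gene Glud1 (-1.65 ± 0.10) and Mat2a, which makes S-adenosylmethionine from methionine (-2.23 ± 0.11), fell most.

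Of 28 measured genes through which amino acids act on mTORC1 at the lysosome, of a list of 29, 6 (21.4%) were called higher and 15 (53.6%) lower, against 24.5% and 46.1% of all genes, with a median of -0.35. The leucine sensor relative Sesn1 (-1.89 ± 0.089), the lysosomal anchor gene Lamtor1 (-1.27 ± 0.081) and Slc38a9 fell most. Wdr59, a subunit of the GATOR2 complex, rose by 2.47 ± 0.089, Sesn3 by 0.76 ± 0.089 and Fnip1 by 0.62 ± 0.10.

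**Figure D4:**
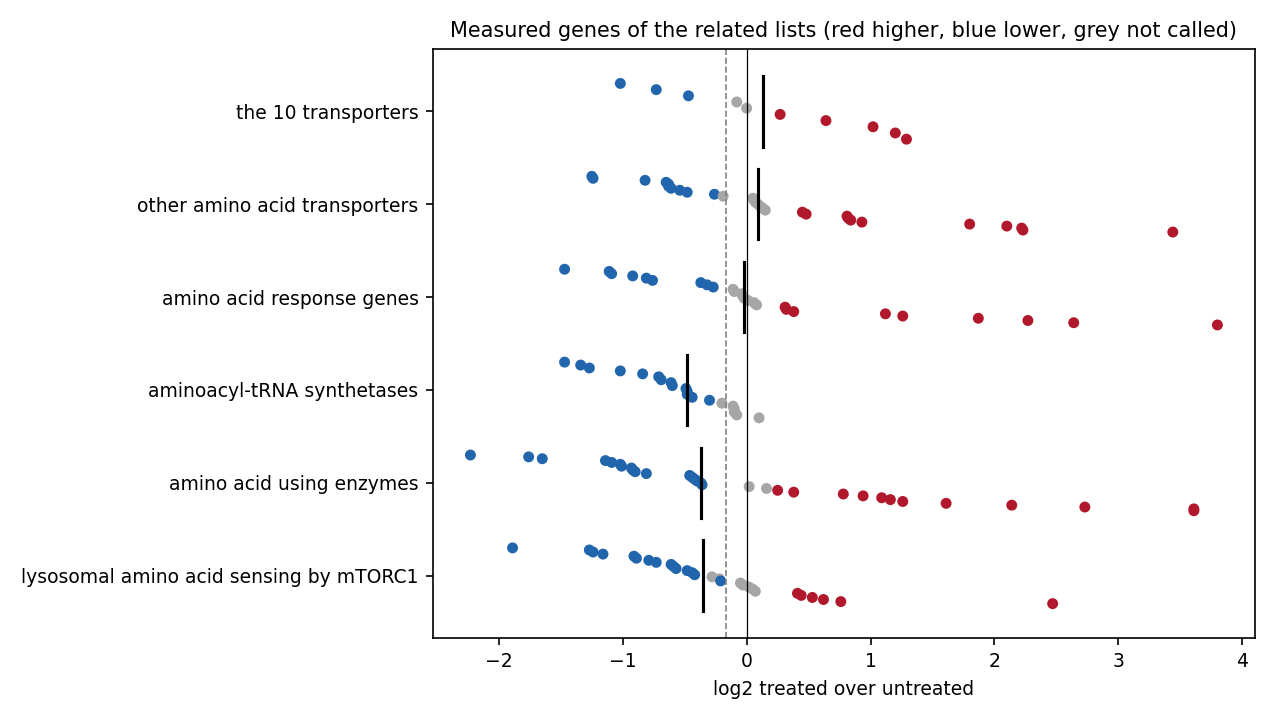
Log2 ratio of treated over untreated for each measured gene of the 10 transporters and of the 5 related lists. Red points were called higher, blue points lower and grey points not called, black bars are the list medians, and the dashed line is the median of all genes, -0.17. The synthetase list has no red point, and the other lists have points of both colours.

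The values are relative to the array as a whole. When arrays were centred on their median rather than fitted by loess, the median over all genes was -1.03 (-1.48, -0.06 and -1.67 on replicates 1, 2 and 3), and 0 genes were called in either direction, with 215 higher and 5096 lower at an unadjusted p under 0.05. The signs of Slc3a2 (-0.02), Slc38a1 (-0.49) and Slc7a8 (-0.90) were then turned. Relative to the median of all genes of the same setting, Slc7a11 lay between 1.22 and 2.20 under the main setting and all alternatives, Slc15a3 between 1.17 and 1.53, Slc3a2 between 1.01 and 1.37, Slc38a2 between -1.17 and -0.72, Slc1a5 between -0.79 and -0.31 and Slc7a7 between -0.62 and -0.21. These 6 genes thus kept their side of the median of all genes under the main setting and the 16 alternatives. So did Slc38a1 (0.09 to 0.88) and Slc7a8 (0.13 to 0.54). Slc7a6, which was not called, did so wherever it was measured (0.02 to 1.00), so keeping a side is not a sign of change. Slc7a5 did not (-0.06 to 0.47). The share of all genes that kept their side was not computed.

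**Figure D5:**
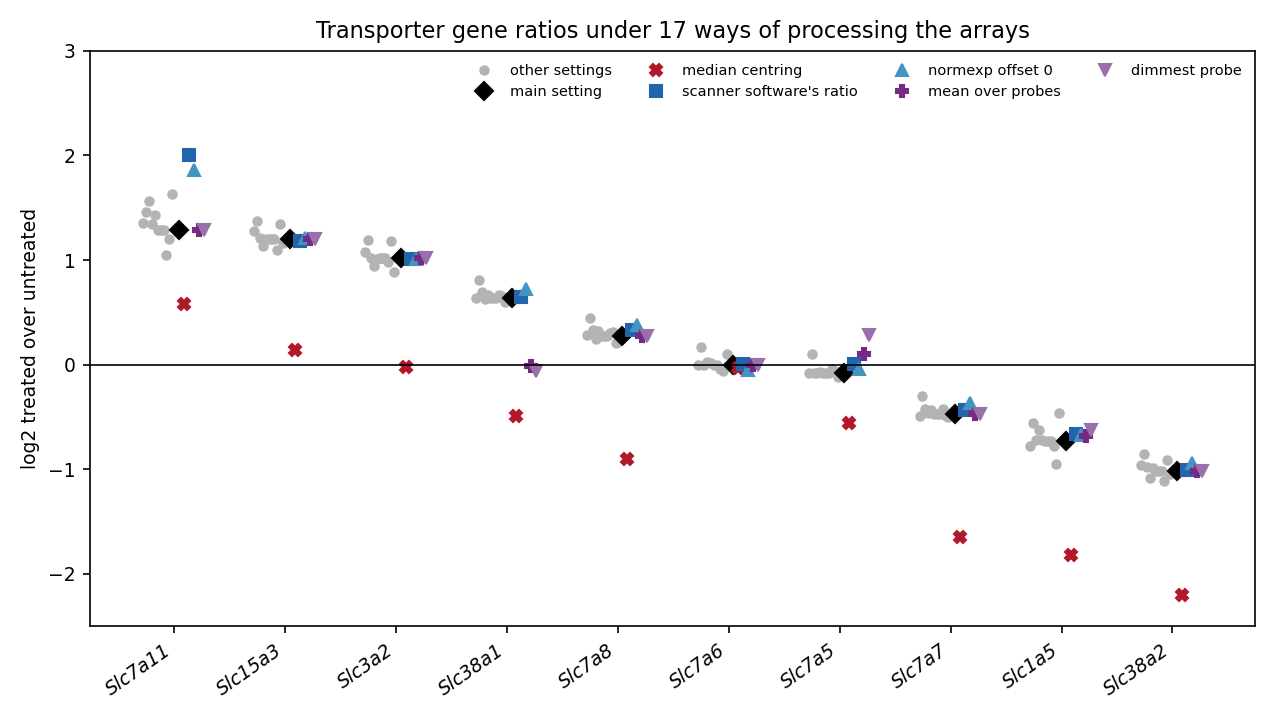
Log2 ratio of treated over untreated of the 10 transporter genes under the main setting and 16 alternatives, with the settings that moved a gene most in colour. Median centring (red crosses) lowers Slc7a6 least, to -0.03, and the other genes by more, the scanner software's ratio and an offset of 0 raise Slc7a11 to 2.00 and 1.86, and the choice of probe moves Slc38a1 and Slc7a5.

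Macrophage identity was checked with 12 marker genes, of which 10 were measured. Their summed log2 level was between 18.47 and 18.63 in untreated and between 17.38 and 17.70 in treated cells. Of the 10, 9 (90%) were called lower and 1 (10%) higher, against 46.1% and 24.5% of all genes. Among those lower was Csf1r (-1.79 with its brightest probe, and up to -0.71 with its others), and Cd14 was higher (0.97). Markers of other cells were also set beside the groups. The 7 measured neutrophil markers of 8 had summed log2 levels of 14.62 to 14.82 in untreated and 14.70 to 15.35 in treated cells, and Ly6g was not among the genes named on the array. Of these 7, 3 (42.9%) were called higher (Camp, Elane and S100a8), against 24.5% of all genes. Another 3 (42.9%) were called lower (Ltf at -2.08, Mpo at -1.32 and Ngp at -0.71), against 46.1%. The 5 measured fibroblast markers of 8 summed to 8.96 to 9.05 and 9.30 to 9.46, with Col1a1, Pdgfra and Lum not measured. The 3 measured T cell markers of 8 summed to 11.04 to 11.23 and 11.30 to 11.46, with Cd3d, Cd3g, Cd8a, Cd2 and Trac not measured, and the 3 endothelial ones of 5 to 11.15 to 11.40 and 12.09 to 12.55, with Tek and Emcn not measured. The endothelial sum rests on the brightest Kdr probe (1.07), while its other probe gave -0.13, and Pecam1 (0.18) and Cdh5 (-0.15) were not called. The 3 dendritic cell markers of 6 summed to 15.10 to 15.34 and 15.42 to 15.58, and the 2 B cell markers of 6 to 10.31 to 10.39 and 8.77 to 8.90. The dendritic cell sum rests on Siglech (0.24, not called, and -0.21 with its other probe). Zbtb46 was called higher (1.51) and Flt3 (0.08) was not called. Of the T cell markers, Cd4 (-0.12), the brightest, was not called, and Cd3e (0.96) and Lck (0.89) were called higher. The B cell sum rests on Cd79b, called lower at -1.70, and Pax5 (0.02) was not called. No marker of adipocytes (0 of 5) or of red cell precursors (0 of 6) was measured. The part of other cells in the transporter values was not tested.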

How the data were processed

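Expression was measured in 6 RNA samples on 3 Agilent 2-colour arrays. Per the file headers and the submitters' processing notes, the arrays were quantified with Agilent Feature Extraction 10.7.3.1. The intensity values deposited by the authors are each spot's median brightness and local background, not normalized, per the file headers. The deposited log10 ratio is the scanner software's ratio of Cy5 over Cy3, per the file headers. The authors' deposited table holds log2 values. The sources used here do not give how it was made. Against loess ratios of treated over untreated without background correction, the table correlated at r = 0.994, 0.990 and 0.992. Its medians were -0.00041, -0.0049 and -0.00064. These values are over array spots rather than probes, with outlier spots kept. Its direction and centring were taken from that comparison, and its background handling stays unknown.

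In limma 3.58.1 under R 4.3.3, intensities were corrected with normexp (offset 50) and normalized with loess within arrays, with control and outlier spots at weight 0. Outlier spots were left out (323, 303 and 299), and no spot was saturated. Ratios were turned to treated over untreated by the labelled dyes. Of 55681 probes, 27235 were named through RefSeq transcripts (GRCm38.p6, symbols alone). A probe was measured when well above background in at least 3 of 6 channel readings, and the brightest stood for its gene. Ratios were tested against 0 with lmFit and eBayes over 13187 genes, with Benjamini-Hochberg adjustment. The test was also run on simulated ratios for this number of genes. Far fewer genes were changed there than were called here, and normalization was not simulated, so that run does not check these calls. Channel levels are after Aquantile scaling. A fold given as "at least" sets the mean of the bright group against the higher of the dim probe's own signal and the lowest signal well above background. Named genes were the 10 transporters, the 3 largest rises and falls of each list among genes of the same sign on all arrays, and 11 genes fixed by name. The cell type marker genes given with values were picked after these were seen. The genes and lists were chosen with earlier results of these data known. The alternatives tried changed background correction, normalization, centring, filter, probe choice, dye and weighting, or left out an array. The number of arrays limits the precision.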

Additional observations from a re-analysis of the deposited data

How the results depend on the processing

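The reported test is paired within arrays, since each ratio compares both RNA samples of an array. The dye was the only further term fitted to the 3 ratios. Of the 16 alternatives, median centring changed most. With it, the ratios were 0.58 for Slc7a11, 0.14 for Slc15a3, -0.02 for Slc3a2, -0.49 for Slc38a1, -0.90 for Slc7a8, -1.65 for Slc7a7, -1.82 for Slc1a5 and -2.20 for Slc38a2, none of them called, and Atf4 (-0.70), Fnip1 (-0.55) and Gclc (-0.40) turned sign. Every count of called genes, over all genes and in each list, was then 0. At an unadjusted p under 0.05 in limma, 3 of the 10 transporters were lower and 0 higher. Of all 13187 genes, 5096 were lower and 215 higher at that threshold, so the count of lower transporters does not stand out. Slc38a1 was at -0.01 as the mean over probes and -0.06 with its dimmest probe, and Slc7a5 at 0.28 with its dimmest probe, an alternative chosen after seeing the data. Without 1 array Slc7a8 ranged from 0.21 to 0.31, and its call was lost in 2 of 3 cases. Synthetase calls higher were 1 with no offset, with the scanner software's ratio and with arrays centred on the genes measured, and calls lower were 9 in the scanner software's ratio. Of all genes called, 65.3% were lower (3227 higher and 6080 lower), and 51.1% were with arrays centred on the genes measured (4641 and 4841). Under every alternative other than median centring and the choice of probe, Slc7a11, Slc15a3, Slc3a2, Slc38a1, Slc38a2, Slc1a5 and Slc7a7 kept their sign and their call. The causes of these changes were not tested. Dim probes, such as those of Slc7a5, Slc7a6 and Slc7a11, are close to background, which limits their ratios.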
